A study of Mus musculus with 16 samples.

Results

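The 41 genes described here are markers of 3 kinds of cells that are not neurons: 14 of astrocytes, 13 of microglia and 14 of blood vessels. They were taken by name, as the probe sets (groups of short array probes that read 1 transcript) whose platform annotation gives 1 of these genes. That rule found 29 of the 41 among the 16206 genes of the arrays, on 59 probe sets: all 14 astrocyte genes on 35 probe sets, 8 microglia genes on 11 and 7 vascular genes on 13. C1qa, C1qc, P2ry12, Tmem119 and Tyrobp of the microglia genes, and Cldn5, Pecam1, Kdr, Slco1a4, Vtn, Ly6c1 and Cdh5 of the vascular genes, were not analysed here. Ly6c1 had only a probe set shared with Ly6c2.

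The study asked how loss of the microRNA miR-128 changes gene expression in striatal neurons that carry the dopamine D1 receptor. Tagged polysomes (ribosomes on messenger RNA) of these D1 medium spiny neurons were immunoprecipitated from dissected striatum, and their RNA was hybridised to Affymetrix mouse arrays. The 9 deletion arrays were of mice with both copies of miR-128-2 deleted in D1 neurons and carrying the tagged ribosome. They were set against 7 control arrays of littermates that carried the tagged ribosome but not the deletion. All mice were C57BL6/J and 3 months old. There were 2 experimental repeats, with 5 deletion and 3 control arrays in repeat 2 and 4 deletion and 4 control arrays in repeat 1. The titles call the arrays of a repeat biological replicates. The labels call the deletion specific to D1 neurons, but what drives it they do not name. Whatever else the deletion mice carried cannot be told apart from the deletion.

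Astrocytes clear glutamate and potassium from around synapses and are joined by gap junctions. Microglia are the resident macrophages of the brain, which prune synapses with the help of complement and depend on signalling through Csf1r. Brain vessels are lined by endothelial cells with tight junctions and nutrient transporters, and are wrapped by pericytes. The genes described here mark these cells and not the tagged neurons, so in a pulldown their RNA is usually read as co-purified RNA of other cells. Whether it was co-purified here or came from the neurons was not tested. Less co-purified material and less of a gene's RNA per cell cannot be told apart.

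The deleted gene is a source of the mature microRNA miR-128-3p, shown with the seed (bases 2 to 8) in capitals, and the other mouse locus, Mir128-1, encodes the same mature sequence. Both hairpins are shown with the mature sequence in capitals, to show the deleted hairpin beside the one that the labels do not name as deleted.
mmu-miR-128-3p: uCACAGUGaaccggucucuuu
Mir128-2 hairpin, chr9:112118636-112118711, minus strand: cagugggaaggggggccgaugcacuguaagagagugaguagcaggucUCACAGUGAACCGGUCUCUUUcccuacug
Mir128-1 hairpin, chr1:128202361-128202430, plus strand: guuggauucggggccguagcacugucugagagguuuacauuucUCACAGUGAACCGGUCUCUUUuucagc
These sequences are from RefSeq, build GRCm38.p6.

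The deposited values are log2 values that were centred on each probe set's median over the 16 arrays. They show how a gene differs between arrays, not how strongly it is expressed, so the presence of astrocyte, microglial or vascular RNA cannot be checked from its level. A difference of 1 on this scale is 2-fold. A gene's value is the mean over its probe sets. Differences are deletion minus control, fitted with the experimental repeat as a second term, and ± gives the SE of the fit unless SD is named.

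The 2 control arrays that stand apart, replicate 3 of repeat 1 and replicate 1 of repeat 2, need to be known before the results. The mean of 14 oligodendrocyte markers was 1.55 on the first and 1.43 on the second, against at most 0.41 on any other array. All 14 markers had their 2 highest values there. The oligodendrocyte mean ran from -0.35 to 0.41 in deletion arrays and from -0.29 to 1.55 in control arrays, and all 14 markers had a negative deletion minus control difference. Without these 2 arrays 10 of the 14 were positive, and the difference of the list mean was 0.07 ± 0.15 in place of -0.38 ± 0.29. The D1 neuron markers went the other way: 6 of 7 were positive, 3 of them at an unadjusted p under 0.05, beside 4.97% of all genes. Their mean lay between -0.02 and 0.22 in deletion arrays and between -0.28 and 0.06 in control arrays. The difference of that mean was 0.22 ± 0.05 with all arrays and 0.17 ± 0.05 without the 2, where 5 of 7 were positive. The D1 mean had its 2 lowest values on the arrays that stand apart, -0.19 on the first and -0.28 on the second. The mean of 3 D2 neuron markers was 0.56 on the first and 0.54 on the second, against at most 0.37 on any other array. The D2 mean differed by -0.08 ± 0.13 with all arrays and by 0.12 ± 0.08 without the 2. The 6 cortical and interneuron markers were all negative, 2 of them at an unadjusted p under 0.05, beside 3.71% of all genes. Their mean lay between -0.85 and 0.68 in deletion arrays and between -0.36 and 0.65 in control arrays, a difference of -0.45 ± 0.20 with all arrays and -0.33 ± 0.21 without the 2. The 3′ minus 5′ difference of the Gapdh and actin control probe sets, in centred log2 values, is a measure of RNA integrity and amplification. It was 1.82 on the control array of repeat 2, 0.40 on that of repeat 1 and at most 1.17 elsewhere. Being centred, it shows how an array departs from the others and is not a 3′ over 5′ ratio. The part of these differences in the results below was not tested, and results are given with these 2 control arrays and without them.

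No marker of astrocytes, microglia or vessels was called different between deletion and control arrays. With limma and Benjamini-Hochberg adjustment over all genes, 0 of 29 members were called at an adjusted p under 0.05, where 0.0617% of all genes were called, all of them higher in deletion. The smallest adjusted p of a member was 0.463, for Esam. Without the 2 control arrays that stand apart, again 0 members were called, beside 0.00617% of all genes. At an unadjusted p under 0.05, 0 members were higher and 1 was lower, beside 4.97% of all genes higher and 3.71% lower. By probe set 0 of 59 were called, against 0.0323% of 37112. At an unadjusted p under 0.05, 2 of 59 were higher and 2 lower, beside 3.71% higher and 3.13% lower among all probe sets, and 3 of 59 had a p under 0.05 in the authors' deposited table, against 6.16% of all probe sets. The values of deletion and control arrays overlapped for all 29 members, and 0.037% of all genes had groups that did not overlap.

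The differences were small and mostly negative. Of the 29 members 24 were lower in deletion in the fit and 5 higher, with a median difference of -0.06, while 54.7% of all genes were negative, with a median of -0.00. Without the 2 control arrays that stand apart, 18 members were negative and 11 positive, beside 56.3% negative among all genes, and the members' median was -0.00. The fit had room for changes of moderate size. For the 21 members with an SD of at least 0.1 over the arrays, 20 of the 95% intervals held 0, all but Esam. Of these intervals 20 lay within 1 log2 of 0, all but that of C1qb, but only 14 within 0.5. They are for the difference in a gene's mean over its probe sets, some of which hardly varied, and do not bound single probe sets. Csf1r was at -0.43 ± 0.54 on 1419872_at and at -0.28 ± 0.30 as a gene.

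**Figure D1:**
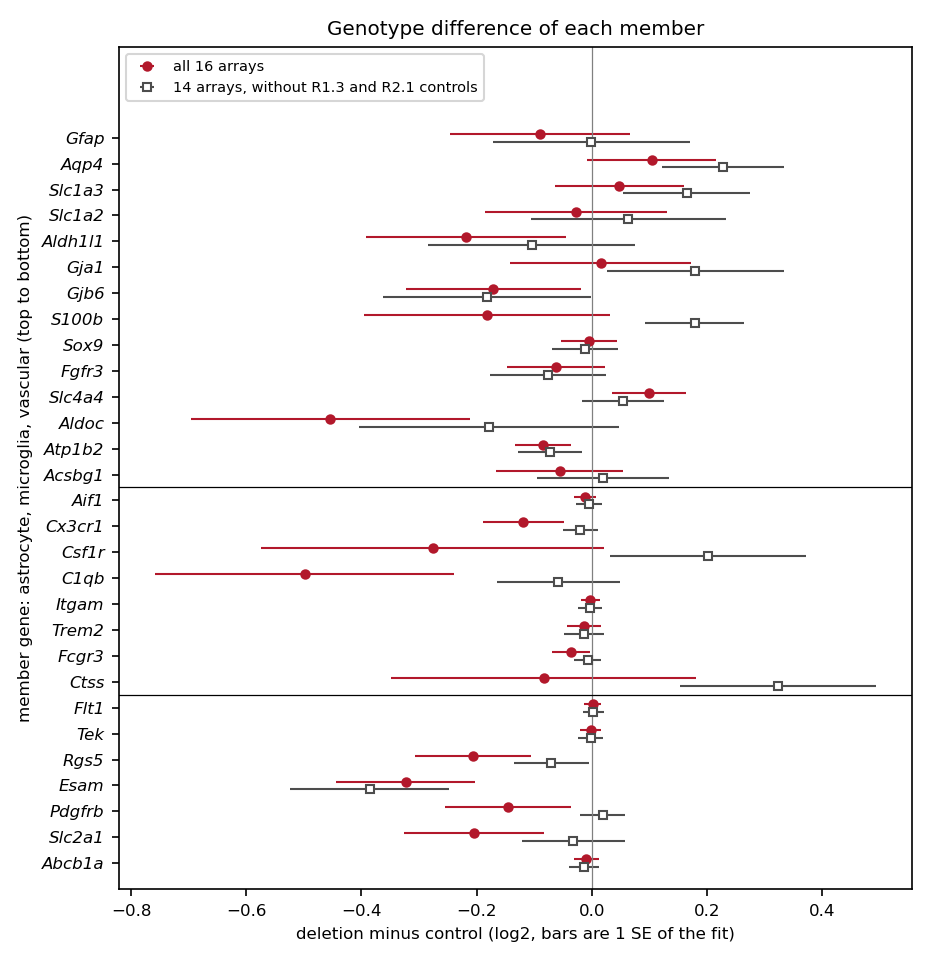
Deletion minus control difference of each of the 29 member genes in log2, with 1 SE of the fit as bars. Red points use all 16 arrays and open squares the 14 arrays left without control repeat 1 replicate 3 and control repeat 2 replicate 1. The open squares of C1qb, Csf1r, Ctss and S100b stand to the right of the red points, Esam is at -0.32 and -0.39, and the flat genes sit at 0.

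Averaged over all its genes, flat probe sets included, each class had a small negative difference. The mean of the 14 astrocyte genes differed by -0.08 ± 0.09, with -0.06 within repeat 2 and -0.10 within repeat 1. The mean of the 8 microglia genes differed by -0.13 ± 0.11, with -0.25 within repeat 2 and -0.02 within repeat 1. The mean of the 7 vascular genes differed by -0.13 ± 0.04, with -0.19 within repeat 2 and -0.07 within repeat 1, and none of the 9 deletion arrays (0 of 9) exceeded the mean of the control arrays of the same repeat. The vascular mean was -0.24 with the widest probe set of each gene and -0.36 with probe sets of an SD under 0.1 left out. The means of the wider vessel lists did not show the vascular difference. The mean of 21 other endothelial genes differed by 0.01 ± 0.02, and that of 11 mural (vessel wall) genes by 0.02 ± 0.03. On those lists 5 of 9 and 6 of 9 deletion arrays exceeded the control mean of their repeat. By gene, 15 of 21 and 8 of 11 were negative, beside 54.7% of all genes, with medians of -0.013 and -0.0035. The highest differences were 0.27 for Bsg and 0.46 for Tagln, which raise these means. An SD under 0.1 was found for 12 of 21 and 8 of 11, genes that could move a mean little. All these means are descriptions with no test.

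The control arrays that stand apart were the highest arrays of every class. The astrocyte mean was 0.34 on control repeat 1 replicate 3 and 0.29 on control repeat 2 replicate 1, against at most 0.22 on other arrays. The microglia mean was 0.57 and 0.58 on them, against at most 0.20 elsewhere, and the vascular mean 0.18 and 0.28, against at most 0.09. Without these arrays the astrocyte difference was 0.02 ± 0.09, the microglia difference 0.05 ± 0.05 and the vascular difference -0.07 ± 0.03. The astrocyte and microglia differences thus changed sign, and the vascular one kept its sign at a smaller size. Of the vascular genes, Esam was at -0.39 without these arrays and the rest lay between -0.07 and 0.02.

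**Figure D2:**
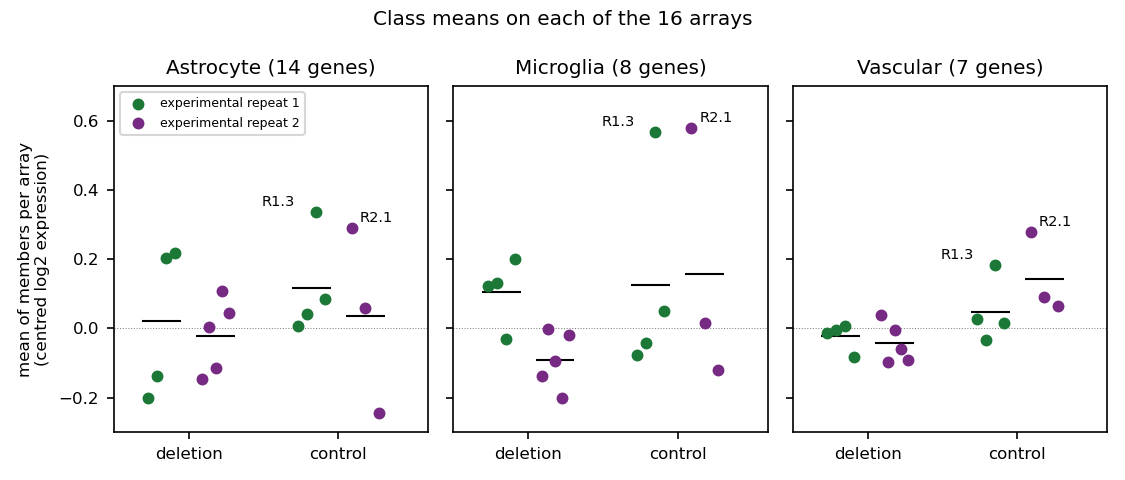
Mean centred log2 value of the measured genes of each class on each array, deletion left of control, with experimental repeat 1 in green and repeat 2 in purple. Points are arrays, bars are group means within a repeat, and the 2 labelled control points are repeat 1 replicate 3 and repeat 2 replicate 1. Those control points are highest in each panel, at 0.57 and 0.58 for microglia, where every other array is at or below 0.20.

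Among the astrocyte genes, the structural and transporter markers did not separate the genotypes. Gfap, the intermediate filament protein of astrocytes, was at -0.36, -0.15 and 0.59 (lowest, median and highest) over 9 deletion arrays and at -0.40, 0.03 and 0.49 over 7 control arrays. Slc1a3, the glutamate transporter GLAST, was at -0.30, 0.01 and 0.39 in deletion arrays and at -0.34, 0.05 and 0.30 in control arrays. Slc1a2, the main astrocytic glutamate transporter, was at -0.33, -0.09 and 0.42 in deletion arrays and at -0.66, 0.01 and 0.58 in control arrays. The ranges of the genotypes lay nearly on top of each other for Gfap and Slc1a3. For Slc1a2 the control range was wider and held the whole deletion range. The differences were -0.09 ± 0.16 for Gfap, 0.05 ± 0.11 for Slc1a3 and -0.03 ± 0.16 for Slc1a2 (limma adjusted p = 0.974, 1.0 and 1.0). The 95% interval reached from -0.42 to 0.25 for the mean of the 3 Gfap probe sets, of which 1440142_s_at alone was at -0.25 ± 0.45. These differences were -0.00 for Gfap, 0.17 for Slc1a3 and 0.06 for Slc1a2 without the 2 control arrays.

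The genotypes also overlapped for the gap junction and water channel genes. Gjb6, a connexin, was at -0.51, -0.01 and 0.38 in deletion arrays and at -0.41, 0.03 and 0.77 in control arrays, a difference of -0.17 ± 0.15. Gja1, the more abundant astrocytic connexin, differed by 0.02 ± 0.16, and Aqp4, the water channel of astrocytic endfeet, by 0.10 ± 0.11. Their differences were 0.18 ± 0.15 and 0.23 ± 0.11 without the 2 control arrays. On 1434449_at alone Aqp4 was at 0.22 ± 0.30 with all arrays. Without the 2 control arrays that probe set was at 0.61 (limma unadjusted p = 0.0271), and it was not called after adjustment. The remaining astrocyte genes were Sox9, an astrocytic transcription factor, Fgfr3, a growth factor receptor, Slc4a4, a sodium bicarbonate cotransporter, Atp1b2, a sodium pump subunit, and Acsbg1, an acyl-CoA synthetase. Their differences lay between -0.08 and 0.10.

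By the range of a gene's mean over its probe sets, Aldoc, S100b, Aldh1l1 and Gjb6 varied most of the astrocyte genes. Single probe sets ranked otherwise. The SD was 0.90 on 1440142_s_at of Gfap, 0.75 on 1434449_at of Aqp4 and 0.69 on 1439940_at of Slc1a2. For Aldoc it was at most 0.65. Aldoc, the brain form of the glycolytic enzyme aldolase, was at -0.82, -0.14 and 0.47 in deletion arrays and at -0.35, 0.05 and 1.04 in control arrays, a difference of -0.45 ± 0.24 (limma adjusted p = 0.639). It was lower by 0.45 in repeat 2 and by 0.46 in repeat 1 without passing the test, and its difference was -0.18 ± 0.23 without the 2 control arrays. Aldh1l1, a folate enzyme used as a pan-astrocyte marker, was at -0.70, -0.10 and 0.51 in deletion arrays and at -0.28, 0.08 and 0.65 in control arrays. Its difference of -0.22 ± 0.17 was 0.06 within repeat 2 and -0.48 within repeat 1, and -0.10 without the 2 control arrays. S100b, a calcium-binding protein that oligodendrocytes also make, was at -0.16, 0.00 and 0.37 in deletion arrays and at -0.31, -0.00 and 1.47 in control arrays. It was at 1.47 and 0.67 on the control arrays that stand apart of repeat 2 and repeat 1. Its difference was -0.18 ± 0.21 with these arrays and 0.18 ± 0.09 without them.

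Microglia genes fell into 4 that varied and 4 that did not. C1qb, a chain of the complement protein C1q, was at 0.00, -0.09, -0.27, -0.36 and 0.00 in deletion arrays of repeat 2, against 1.82, 0.32 and -0.04 in control arrays. In repeat 1 it was at 0.17, 0.15, -0.20 and 0.26 in deletion arrays, against -0.10, 0.05, 1.19 and -0.05 in control arrays. One control array of each repeat thus stood far above all others, and the rest of both genotypes lay between -0.36 and 0.32. The difference was -0.50 ± 0.26 over all arrays (limma adjusted p = 0.626), the largest of any member, and -0.06 ± 0.11 without these 2 control arrays.

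Csf1r, the receptor on which microglia depend for survival, was at -0.72, -0.06 and 0.80 in deletion arrays and at -0.48, 0.20 and 1.43 in control arrays. Ctss, the lysosomal protease cathepsin S, was at -0.60, 0.00 and 0.63 in deletion arrays and at -0.56, -0.02 and 1.20 in control arrays. Cx3cr1, the fractalkine receptor, was at -0.08, 0.00 and 0.04 in deletion arrays and at -0.05, -0.00 and 0.53 in control arrays. In each, the same 2 control arrays were the highest of the 16, with Csf1r at 1.43 and 1.40, Ctss at 1.20 and 1.08 and Cx3cr1 at 0.53 and 0.21 on replicate 3 of repeat 1 and replicate 1 of repeat 2. The difference was -0.28 ± 0.30 for Csf1r, -0.08 ± 0.27 for Ctss and -0.12 ± 0.07 for Cx3cr1. Without the 2 control arrays it was 0.20 ± 0.17, 0.32 ± 0.17 and -0.02 ± 0.03, so that Csf1r and Ctss changed sign.

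The other microglia genes had an SD under 0.1 over the arrays. Aif1, an actin-bundling protein used to stain microglia, was at -0.09, 0.00 and 0.04 in deletion arrays and at -0.05, -0.00 and 0.06 in control arrays. Itgam, an integrin subunit, Trem2, a lipid-sensing receptor, and Fcgr3, an Fc receptor, had SDs between 0.03 and 0.06. Fcgr3 was at 0.21 on control repeat 1 replicate 3 and at most 0.04 on every other array. Their differences were -0.00 for Itgam, -0.01 for Trem2 and -0.04 for Fcgr3.

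**Figure D3:**
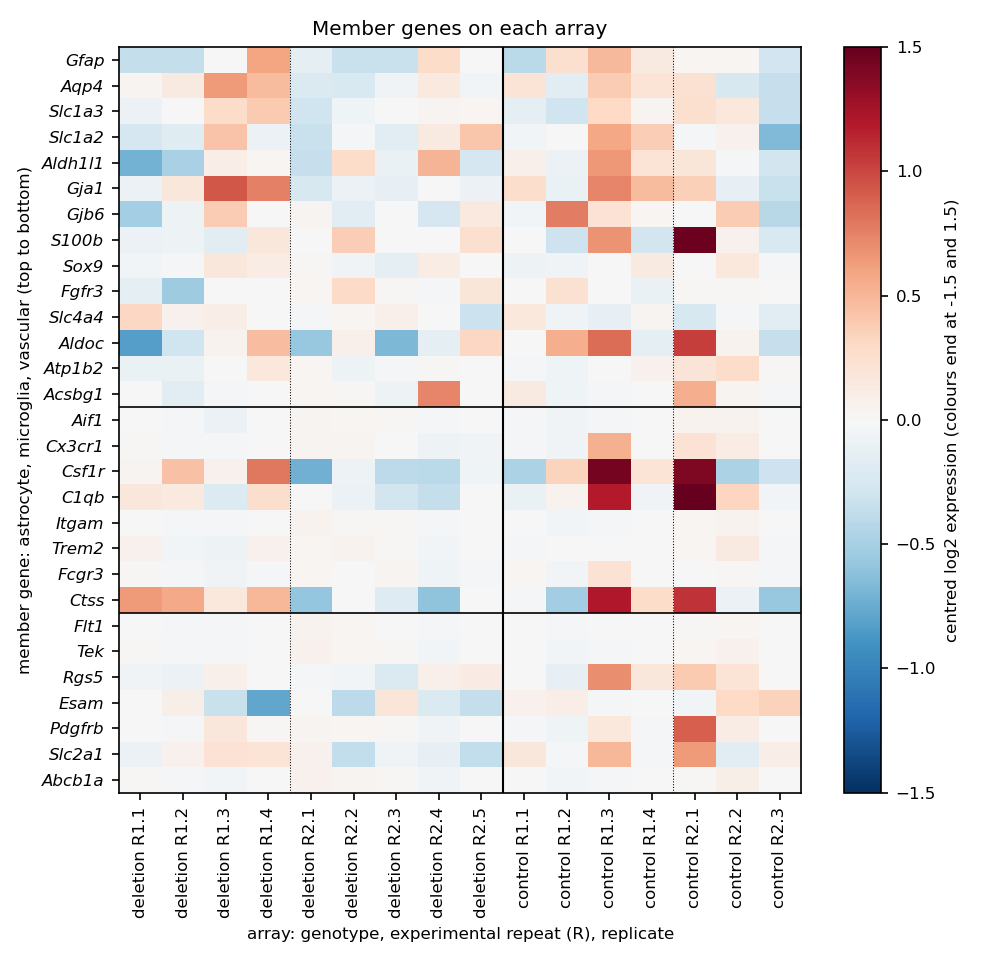
Centred log2 value of each member gene (rows: astrocyte, microglia, vascular) on each array (columns), with deletion arrays left of the solid line and control arrays right of it, dotted lines between the experimental repeats, red for higher and blue for lower. C1qb, Csf1r and Ctss are deep red on control repeat 1 replicate 3 and control repeat 2 replicate 1, from 1.08 to 1.82, while rows such as Aif1, Itgam, Flt1 and Tek are pale throughout.

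Promoters of measured members were searched for the core GAGGAA of the site bound by PU.1, a transcription factor of the macrophage lineage. The RefSeq promoters run from 250 bases before to 50 after a gene's start, and 28.3% of 32851 hold GAGGAA on either strand. Among the measured members it was in 7 of 8 promoters of 7 microglia genes, of which Fcgr3 has 2 promoters, in 5 of 14 promoters of 11 astrocyte genes and in 3 of 5 promoters of 5 vascular genes. The promoters of C1qb and Ctss are shown as those of microglia genes with wide spread, with each match in capitals, written as TTCCTC where it lies on the opposite strand.
C1qb, chr4:136886151-136886450, minus strand: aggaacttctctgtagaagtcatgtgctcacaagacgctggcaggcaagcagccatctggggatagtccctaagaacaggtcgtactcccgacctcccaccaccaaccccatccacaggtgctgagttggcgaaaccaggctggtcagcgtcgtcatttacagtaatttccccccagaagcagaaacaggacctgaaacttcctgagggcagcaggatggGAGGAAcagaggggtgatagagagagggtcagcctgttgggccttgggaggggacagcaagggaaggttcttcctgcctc
Ctss, chr3:95526536-95526835, plus strand: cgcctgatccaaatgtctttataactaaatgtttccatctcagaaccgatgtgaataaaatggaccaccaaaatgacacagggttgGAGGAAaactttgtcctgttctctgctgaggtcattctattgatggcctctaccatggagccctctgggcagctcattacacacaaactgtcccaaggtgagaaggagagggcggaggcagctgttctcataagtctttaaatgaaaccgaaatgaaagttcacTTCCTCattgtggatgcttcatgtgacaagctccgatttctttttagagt
The build is GRCm38.p6. The Cx3cr1 window holds no GAGGAA, while those of the flat genes Aif1, Itgam, Trem2 and Fcgr3 do. The promoter of Csf1r was not analysed here. A match is a description of the sequence, not of binding.

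Of the vascular genes, Esam, an adhesion molecule of endothelial tight junctions, had the smallest p of all members. It was at 0.00, -0.39, 0.18, -0.21 and -0.36 in deletion arrays of repeat 2, against -0.04, 0.30 and 0.34 in control arrays. In repeat 1 it was at 0.01, 0.09, -0.33 and -0.78 in deletion arrays, against 0.06, 0.10, -0.02 and -0.00 in control arrays. In each repeat the lowest values belonged to deletion arrays, and the genotypes overlapped. The difference was -0.32 ± 0.12, with -0.36 within repeat 2 and -0.29 within repeat 1 (limma unadjusted p = 0.0179, adjusted p = 0.463). Unlike Rgs5, Slc2a1 and Pdgfrb it was not high on the 2 control arrays, where it was at -0.02 and -0.04. Its difference was -0.39 ± 0.14 without them. It has 1 probe set and did not pass the adjustment over all genes.

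The pericyte and transporter genes differed from Esam in where their high values lay. Rgs5, a regulator of G-protein signalling in pericytes, was at -0.22, -0.02 and 0.12 in deletion arrays and at -0.13, 0.18 and 0.70 in control arrays, a difference of -0.21 ± 0.10 (limma adjusted p = 0.596). Slc2a1, the glucose transporter of the blood-brain barrier, was at -0.37, -0.05 and 0.21 in deletion arrays and at -0.15, 0.10 and 0.64 in control arrays, a difference of -0.20 ± 0.12. Pdgfrb, the growth factor receptor of pericytes, was at -0.06, 0.01 and 0.18 in deletion arrays and at -0.07, -0.01 and 0.89 in control arrays, a difference of -0.15 ± 0.11. Rgs5 and Slc2a1 had their 2 highest values on the control arrays that stand apart, and Pdgfrb its highest value on that of repeat 2. Without those arrays the differences were -0.07 ± 0.06 for Rgs5, -0.03 ± 0.09 for Slc2a1 and 0.02 ± 0.04 for Pdgfrb. The endothelial receptors Flt1 (for VEGF) and Tek (for angiopoietins) and the efflux pump Abcb1a had SDs between 0.02 and 0.04.

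Counted over the classes, the 2 control arrays were together the highest 2 of 16 for 8 of 29 members. These were S100b, Aldoc, C1qb, Csf1r, Ctss, Cx3cr1, Rgs5 and Slc2a1. Among all genes 3.19% had that pattern. Wider lists of the same cell types showed less of it. It was found for 0 of 28 other astrocyte genes, 1 of 22 other microglia genes, which was the lysosomal protein gene Laptm5, 1 of 21 other endothelial genes, which was the tight junction gene Tjp1, and 0 of 11 mural genes. The share was thus 4 of 8 in the microglia members and 1 of 22 in the other microglia genes. No test was made of that difference. Of the 22 other microglia genes 11 had an SD under 0.1. Among genes with an SD of at least 0.1, 5 of 11 other microglia genes were highest on either of the 2 arrays. So were 5 of 22 other astrocyte, 1 of 9 other endothelial and 2 of 3 mural genes, beside 17.5% of all such genes. The 4 microglia members were also the 4 called varying, but that SD was taken with the 2 control arrays included. Cx3cr1 had an SD of 0.15 over the 16 arrays and 0.05 over the other 14.

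How much of each class could be seen depended on the probe set. A probe set with an SD under 0.1 over the 16 arrays is called flat here, and 18 of 59 were, among them 5 of 11 microglia and 7 of 13 vascular probe sets. The other 41 of 59 reached that SD, as did 60.6% of all probe sets. By gene, 21 of 29 reached it, as did 67.8% of all genes. The flat probe sets followed the arrays' overall medians: 12 of 18 were highest on 1 of the 2 arrays with the highest median, and 9 of 18 lowest on the array with the lowest. Among all flat probe sets of the arrays 10652 and 6011 of 14618 did so, so this was not particular to the members. Of the 41 other member probe sets 1 and 5 did so. Flatness says nothing of level, since the centring removed it.

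Probe sets of the same gene disagreed in spread. For Gfap, probe set 1440142_s_at had an SD of 0.90 while 1426508_at and 1426509_s_at had 0.07 and 0.06. For Rgs5 the SD was 0.66 on 1417466_at and 0.03 on each of the other probe sets, and for Csf1r it was 1.17 on 1419872_at and 0.15 on 1419873_s_at. A gene's mean over probe sets therefore shows less than its most variable probe set, as for Rgs5, whose difference was -0.61 ± 0.30 on 1417466_at alone and -0.21 as the gene's mean. For Slc4a4, 2 of its 4 probe sets were higher in deletion at an unadjusted p under 0.05, by 0.30 ± 0.13 on 1452071_at and 0.22 ± 0.10 on 1434096_at, but 1426432_a_at was at -0.15 ± 0.10 (limma adjusted p at least 0.693). For Slc2a1, 1434773_a_at was at -0.48 ± 0.21 and 1426600_at at 0.11 ± 0.15. For Slc1a2, 1439940_at differed by 0.64 in repeat 2 and by -0.86 in repeat 1.

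**Figure D4:**
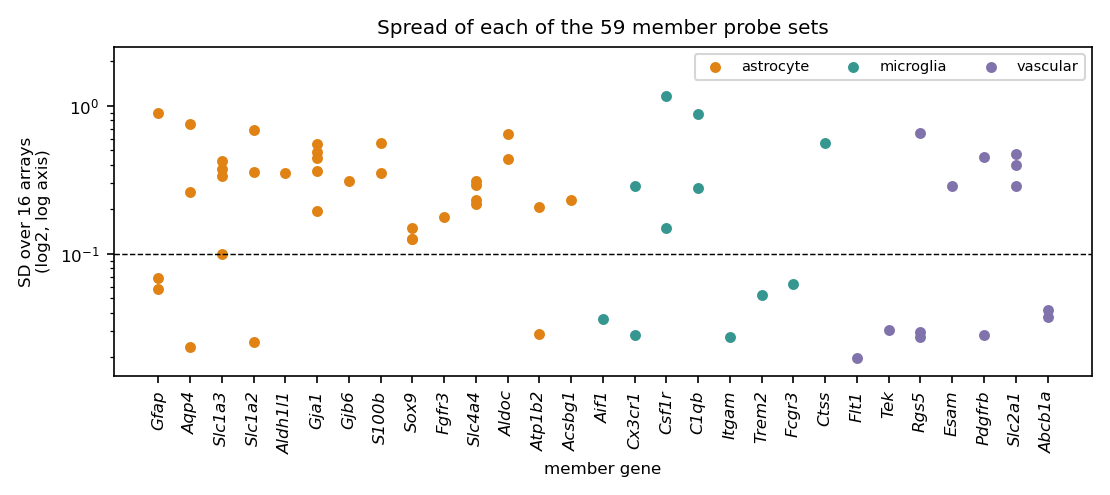
SD over the 16 arrays (log2 units, log axis) of each of the 59 member probe sets, grouped by gene and coloured by class, with a dashed line at 0.1. Genes such as Gfap, Cx3cr1, Rgs5 and Pdgfrb have probe sets on both sides of the line, while all probe sets of Aif1, Itgam, Trem2, Fcgr3, Flt1, Tek and Abcb1a lie below it.

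No member passed the test for a genotype difference that varied with the experimental repeat: 0 of 29 had an interaction at an adjusted or an unadjusted p under 0.05 (limma, smallest unadjusted p = 0.0792, for Atp1b2), where 4.22% of all genes had an unadjusted p under 0.05. Between the repeats themselves, repeat 2 minus repeat 1, 0 members were called, beside 7.84% of all genes higher and 7.1% lower. Aqp4 was at -0.34 ± 0.11 and Gja1 at -0.48 ± 0.16 (limma adjusted p = 0.0513 and 0.0542). Without the 2 control arrays 4 members were called lower in repeat 2, beside 6.43% of all genes, and 0 higher, beside 7.41%: Aqp4 by -0.39 ± 0.10, Gja1 by -0.51 ± 0.15, Csf1r by -0.58 ± 0.16 and Ctss by -0.56 ± 0.16 (limma adjusted p = 0.0237, 0.0365, 0.0339 and 0.0380). Ctss shows it in the deletion arrays, at -0.57, 0.00, -0.19, -0.60 and 0.00 in repeat 2, against 0.63, 0.56, 0.16 and 0.50 in repeat 1. The control arrays that the fit also used are not listed here, so this separation is that of 1 genotype.

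Genes that mark a changed state of astrocytes or microglia were read beside the members, from lists that share no gene with them. In none of 10 measured reactive astrocyte genes and 8 activated microglia genes did the difference pass the adjustment over all genes. Serpina3n, a secreted protease inhibitor raised in reactive astrocytes, was at -1.13, 2.49 and 3.75 in deletion arrays and at -1.14, -0.94 and 1.68 in control arrays. Its difference of 2.19 ± 0.71 was the largest positive one of all genes, yet deletion arrays reached as low as the lowest control arrays (limma adjusted p = 0.383). It was 1.56 within repeat 2 and 2.77 within repeat 1, and 2.11 without the 2 control arrays. Vim, an intermediate filament gene, was at -0.10 ± 0.06 and Hspb1, a small heat shock protein gene, at 0.08 ± 0.11. Over the 10 reactive astrocyte genes the differences ran from -0.27 to 2.19, with a median of -0.00. Of these genes 5 had an SD under 0.1. Of the activated microglia genes, Cd68, a lysosomal membrane protein gene, was at 0.38 ± 0.18, the growth factor gene Csf1 at -0.08 ± 0.04 and the chemokine gene Ccl2 at -0.10 ± 0.06. Vim was at -0.05, Cd68 at 0.18, Csf1 at -0.03 and Ccl2 at -0.14 without the 2 control arrays. The lowest value of Cd68 was on control repeat 1 replicate 3, and it was at -0.56 on control repeat 2 replicate 1.

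The wider cell type lists gave no called gene either: 0 of 28 astrocyte, 0 of 22 microglia, 0 of 21 endothelial and 0 of 11 mural genes. Aldh1a1, an enzyme of retinoic acid synthesis that was on the astrocyte list, was at -0.95, -0.25 and 0.47 in deletion arrays and at -0.12, 0.52 and 1.38 in control arrays. All 9 deletion arrays were below the control mean of their repeat, and the difference was -0.95 ± 0.22 with an adjusted p of 0.214 by limma (-0.78 without the 2 control arrays). Glul, the glutamine synthetase of astrocytes, was at -0.41 ± 0.17 and Mt1, a metallothionein gene, at -0.18 ± 0.06. Among other microglia genes Irf8, a transcription factor of the lineage, was at 0.45 ± 0.19, the protease gene Lgmn at 0.43 ± 0.24 and the phosphatase gene Inpp5d at -0.11 ± 0.05. Tagln, a smooth muscle gene, was at 0.46 ± 0.18, and the mural genes Mcam and Acta2 at -0.09 ± 0.07 and -0.03 ± 0.02. The endothelial genes Bsg, Ramp2 and Tjp1 were at 0.27 ± 0.16, -0.04 ± 0.03 and -0.17 ± 0.13. Glul was at -0.25, Lgmn at 0.26, Mcam at -0.03, Acta2 at -0.02, Bsg at 0.12, Ramp2 at -0.01 and Tjp1 at 0.01 without the 2 control arrays. Mcam was at 0.57 on control repeat 1 replicate 3 and at most 0.15 on every other array.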

How the data were processed

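The 16 arrays were grouped by the genotype and experimental repeat in their titles. The authors deposited log2 expression values, centred per probe set: all 37174 had a median of 0 over the 16 columns, to within 1e-06. GCOS 1.4 and GCRMA are named per the submitters' processing notes, with no word on the step of each. The centring leaves no absolute level and allowed no filter on dim probe sets. The authors also deposited a p-value per probe set for the genotype term of a 2-factor model, per the file headers. That table's 16 value columns were not mapped to samples and not used.

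Without the 62 control probe sets of the platform, 37112 remained for testing. By the platform annotation 29680 of them have a single gene, 819 have several and 6613 have no gene. The GRCm38.p6 RefSeq table gave current symbols for 29539. Probe sets of a gene were averaged, giving 16206 genes. The tests were two-sided fits by limma 3.58.1 (lmFit, eBayes; R 4.3.3) of genotype plus experimental repeat, with 13 residual degrees of freedom. A gene was called where its Benjamini-Hochberg adjusted p over all genes was under 0.05. The interaction was tested in a fit of its own, and the steps were tested on simulated data. The number of arrays limits the precision. P-values measure the spread between arrays that the titles call biological replicates.

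The members and all gene lists were chosen with earlier results of these data known. Values are given for members with an unadjusted p under 0.05 for genotype or interaction, the 4 members of each class with the widest range, and Gfap, Slc1a3, Slc1a2, Aif1, Cx3cr1, Pdgfrb and Slc2a1, with C1qa and Cldn5 not analysed here. Of each companion list, called genes or else up to 3 with the smallest unadjusted p are named. Alternatives changed the probe sets used, the scaling, the variance model, the terms and the arrays included.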

Additional observations from a re-analysis of the deposited data

Results flagged for a closer look

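In 4 of 96 groups of arrays looked at (a member gene or a class mean, in the deletion or control arrays of 1 repeat), a single array lay far from the others by Dixon's criterion, which chance alone gives in about 1 in 20. Cx3cr1 was at 0.53 on control repeat 1 replicate 3, where the nearest of the other control arrays of that repeat was at -0.00. C1qb was at 1.19 on the same array, with the nearest at 0.05. Both genes were also high on control repeat 2 replicate 1, in a group of 3 that is too small for the criterion, and both arrays carried the highest oligodendrocyte marker values. Acsbg1 was at 0.73 on deletion repeat 2 replicate 4, with the nearest at 0.03, and Slc4a4 at -0.32 on deletion repeat 2 replicate 5, with the nearest at -0.03.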

How the results depend on the processing

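The count of 0 members called between genotypes, by gene and by probe set, was found under every alternative run, as was the count of 0 interactions where these were run. Of the 29 genotype differences 1 to 7 changed sign under an alternative that changed any, and Esam was the member most often at an unadjusted p under 0.05. It was there in all 16 fits that left out 1 array, but not in repeat 1 alone or repeat 2 alone.

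Of all genes 10 were called. The count was 2 with the ordinary variance, 4 with no repeat term, 1 without the 2 control arrays that stand apart, 0 in repeat 1 alone and 0 in repeat 2 alone, and 2 to 10 when 1 array was left out. Both repeats alone tested fewer arrays. Members called between the repeats numbered 0 as reported, 3 with the widest probe set per gene, 1 with arrays centred on their medians, 2 with quantile normalization, 2 with flat probe sets left out, 4 without the 2 control arrays, and 0 to 2 when 1 array was left out. The vascular mean difference was -0.24 with the widest probe set and -0.36 with flat probe sets left out, both of which by construction give flat probe sets less weight in the mean. Leaving out 1 array gave -0.14 to -0.09 for vascular, -0.14 to -0.03 for astrocyte and -0.17 to -0.03 for microglia means. The upper end of each came without control repeat 2 replicate 1. The cause of the other changes was not tested.

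Replicate numbers are shared between genotypes within a repeat, but the deviations of same-numbered arrays correlated above 0.1 in only 3 of 7 pairs (range -0.3 to 0.431, with 3 of 7 closest to their own number), so the numbers were not taken as pairs. With a replicate block 1 gene and 0 members were called.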
